A study of Mus musculus with 6 samples.

Results

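The 6 genes described here are the Runx transcription factors Runx1, Runx2 and Runx3, their shared partner Cbfb, and Alpl and Sp7, which BMP signaling is known to switch on in bone-forming cells. They were taken from the deposited counts by gene name, 6 of 55809 genes, and all 6 passed the filter on low counts that left 15733 genes for testing. Sp7 passed it only through the libraries with BMP7. RNA was sequenced from HC11 cells, a clonal line of mouse mammary epithelium, grown in medium with BMP7 (BMP7, 3 libraries) or in medium without it (Ctrl, 3 libraries). The study's protocol for stimulating these cells starved them for 16 h and then gave BMP7 at 50 ng per mL for 30 min or 6 h, and the duration behind these libraries was not given in the sources used here. The labels do not say whether the libraries came from separate cultures, so p-values measure the spread between libraries, which may be technical, and the libraries stand for 1 cell line. Libraries are named by their numbers in the counts, which are 1, 2 and 3 for Ctrl and 1, 3 and 4 for BMP7.

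Bone morphogenetic proteins are secreted ligands of the TGF-β family. They bind paired type I and type II receptors, which phosphorylate Smad1, Smad5 and Smad9, and these enter the nucleus with Smad4 and act on genes such as the Id family. In precursors of osteoblasts, the cells that build bone, BMP signaling is known to induce Runx2, the factor that commits cells to this lineage, and Sp7 (osterix), a zinc finger factor that acts after Runx2. Alpl encodes tissue-nonspecific alkaline phosphatase, an enzyme of the cell surface that breaks down pyrophosphate, an inhibitor of mineral formation, and its activity is a common readout of BMP action in cultured cells. Runx proteins bind DNA through the Runt domain, and the binding is strengthened by CBFβ, the product of Cbfb, which does not itself contact DNA. Runx1 is best known as a factor of blood formation and also acts in mammary epithelium, and Runx3 is known for its roles in T cells, sensory neurons and epithelia.

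Addition of BMP7 was followed by higher transcript levels of 4 of the 6 genes, and the sizes fell into 2 classes. Alpl rose 10.5-fold (95% CI 7.47 to 14.8) and Sp7 rose 5.32-fold (95% CI 3.24 to 8.71), both from levels near the limit of the counts. Runx2 rose 1.27-fold and Runx3 rose 1.23-fold, from Ctrl levels of 38.7 and 44.7 TPM against 0.661 TPM for Alpl and 0.420 TPM for Sp7 (a scale that divides by gene length). Runx1 and Cbfb did not pass the test, Runx1 with all 3 BMP7 libraries below all 3 Ctrl libraries and Cbfb with overlapping groups. A gene was called where edgeR's quasi-likelihood test gave an adjusted p below 0.05 (Benjamini-Hochberg, all 15733 genes) and the groups differed by more than 1.2-fold. By that rule 5.99% of all tested genes were higher with BMP7, 5.38% were lower and 11.4% were called in either direction, against 4 higher and 0 lower among the 6 genes. Sp7 is in this count only because its BMP7 libraries passed the filter on low counts. All BMP7 libraries lay on one side of all Ctrl libraries in 29.8% of tested genes, and in 5 of these 6, with Sp7 again among them. The 6 genes were chosen with earlier results of these data known, so these counts are descriptions and not tests.

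Promoter sequences show one feature that the 3 Runx genes shared and Alpl did not. RefSeq windows of 300 bases (GRCm38.p6), each running from 250 bases before a start to 50 bases after it, were at hand for 5 of the 6 genes, 8 windows in all, with 2 annotated starts each for Runx1, Runx3 and Alpl and 1 each for Runx2 and Cbfb. They were searched on both strands for the Runx motif TGTGGT, which reads ACCACA on the other strand, for the Smad box CAGAC, which reads GTCTG there, and for the GC-rich Smad motif GGCGCC, which is its own reverse complement. No 2 matches overlapped in the windows of these genes. The windows printed here are those of the most upstream start of each Runx gene, because they hold the shared feature, and that of Alpl, the gene of the set with the largest fold change. Capitals mark every match to the 3 motifs.
Runx1: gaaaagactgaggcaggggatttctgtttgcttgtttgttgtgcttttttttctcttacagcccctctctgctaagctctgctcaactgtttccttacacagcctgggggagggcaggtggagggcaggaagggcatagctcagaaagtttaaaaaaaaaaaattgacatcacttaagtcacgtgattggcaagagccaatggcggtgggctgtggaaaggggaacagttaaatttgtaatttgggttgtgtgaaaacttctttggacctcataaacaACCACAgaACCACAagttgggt
Runx2: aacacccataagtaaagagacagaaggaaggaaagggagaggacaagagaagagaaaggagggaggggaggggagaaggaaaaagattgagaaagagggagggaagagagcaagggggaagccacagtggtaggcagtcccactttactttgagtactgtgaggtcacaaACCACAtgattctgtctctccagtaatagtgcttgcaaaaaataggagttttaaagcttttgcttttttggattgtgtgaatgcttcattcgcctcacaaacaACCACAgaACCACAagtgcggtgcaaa
Runx3: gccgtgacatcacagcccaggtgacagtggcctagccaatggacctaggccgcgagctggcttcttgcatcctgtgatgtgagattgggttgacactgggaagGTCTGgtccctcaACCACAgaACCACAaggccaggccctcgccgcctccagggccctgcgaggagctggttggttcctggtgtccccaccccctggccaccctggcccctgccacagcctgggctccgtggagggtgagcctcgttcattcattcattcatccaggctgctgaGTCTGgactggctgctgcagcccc
Alpl: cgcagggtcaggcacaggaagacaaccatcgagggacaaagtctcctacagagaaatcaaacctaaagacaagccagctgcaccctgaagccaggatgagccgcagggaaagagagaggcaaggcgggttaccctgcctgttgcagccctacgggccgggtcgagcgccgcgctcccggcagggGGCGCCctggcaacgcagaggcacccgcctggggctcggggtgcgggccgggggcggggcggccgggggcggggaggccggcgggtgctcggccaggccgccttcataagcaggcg

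The Runx1 window is chr16:92826025-92826324, the Runx2 window chr17:44814578-44814877 and the Alpl window chr4:137796335-137796634, all on the minus strand, and the Runx3 window is chr4:135120395-135120694 on the plus strand. Each of the 3 Runx windows held a pair of Runx motifs on the same strand, 8 bases apart, printed as ACCACA. The first bases of the pair lay at +29 and +37 of Runx1, at +24 and +32 of Runx2 and at -134 and -126 of Runx3, counted from the start as +1 with no base 0. A further match lay at -80 of Runx2. Of all 32851 RefSeq windows of this length, 16.8% held the Runx motif, and 7 windows (0.0213%) held such a pair, 3 of them these. The spacing was looked for after the matches had been seen, so its rarity is a description and not a test. The Smad box, held by 49.6% of all windows, was matched 2 times in the upstream Runx3 window, once in the other Runx3 window and once in that of Cbfb. The GC-rich motif, held by 11.9%, was matched at -66 of the upstream Alpl start and at +36 of the downstream Runx1 start. The second Alpl window held none of the 3. Counts per gene cannot tell which start the transcripts came from, and a match is not evidence of binding.

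**Figure D1:**
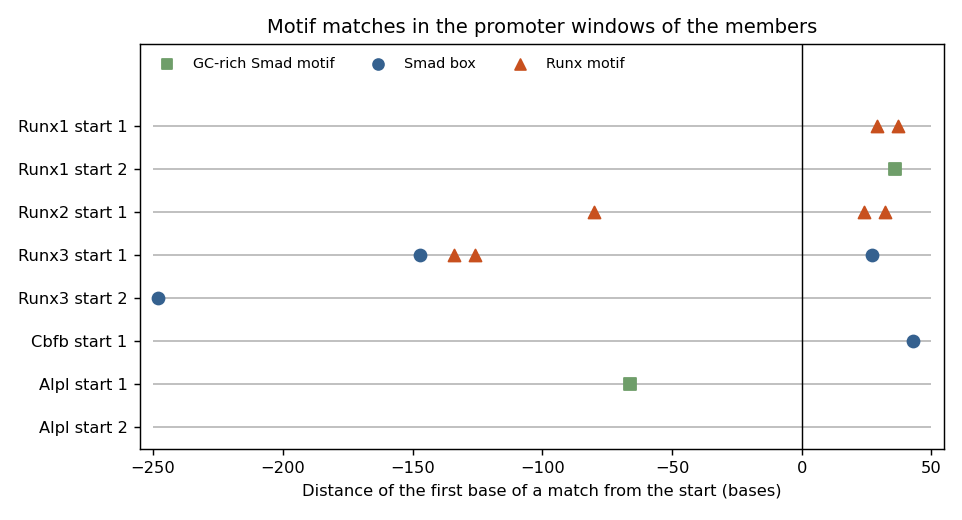
Matches to the 3 motifs in the 8 RefSeq promoter windows of Runx1, Runx2, Runx3, Cbfb and Alpl. The horizontal axis is the distance in bases of a match's first base from the annotated start (black line), each grey line is a window, and starts are numbered from the most upstream one. The paired Runx motifs, 8 bases apart, are in the upstream windows of the 3 Runx genes.

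Total counts were 19858701 to 20327200 in Ctrl and 14607938 to 23748970 in BMP7. Depth thus varied more within BMP7, with BMP7 replicate 1 the lowest and BMP7 replicate 3 the highest of all libraries. Levels are given as CPM, which divides counts by TMM-adjusted library size, for comparing libraries, and as TPM, which also divides by the summed exon length given with the counts, for comparing genes. The epithelial label was checked against markers. Krt5 and Krt14, keratins of basal epithelium, were abundant, and luminal Epcam and Cdh1 were present. The luminal keratins Krt8 and Krt18 were present too, at means of 88.2 and 94.2 TPM in Ctrl and 86.7 and 55.3 TPM in BMP7. Krt19, another luminal keratin, was at 8 counts or fewer in every library. Of the basal markers, Acta2 was at 15 counts or fewer and Myh11 at 16 or fewer. The 6 basal markers summed to 6333 to 6476 CPM in Ctrl and 7143 to 8482 in BMP7, and the 7 luminal markers to 1738 to 1759 and 1399 to 1423. Of 6 basal markers tested, 3 were higher with BMP7 (Krt14, Trp63 and Oxtr), against 5.99% of all tested genes. Of 6 luminal markers tested, 3 were lower (Krt18, Epcam and Cdh1), against 5.38%. These markers were named after their values were seen. As a reference for the treatment, all 5 common BMP target genes (Id1, Id2, Id3, Smad6 and Smad7) rose, from a log2 fold change of 2.21 for Smad6 to 6.31 for Id3.

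Alpl had the largest response of the set. Its counts were 26, 14 and 20 in Ctrl replicates 1, 2 and 3 and 137, 286 and 153 in BMP7 replicates 1, 3 and 4. Scaled to depth, these were 1.25, 0.688 and 0.978 CPM in Ctrl and 9.55, 12.7 and 8.43 CPM in BMP7. The groups were far apart, with the lowest BMP7 library at 6.73 times the highest Ctrl library. Mean levels were 0.973 ± 0.282 CPM in Ctrl and 10.2 ± 2.22 CPM in BMP7 (SD, n = 3 each). The log2 fold change was 3.39 ± 0.23 (SE, adjusted p = 2.95e-08 by edgeR). This was the 19th largest rise among the 15733 tested genes. At the mean Ctrl count, counting error alone is 22.4% for 1 library, against 7.22% at the mean BMP7 count. The gene lies at chr4:137469044-137523695 on the minus strand by the coordinates of the deposited counts, whose header names mm39.

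The 3 other alkaline phosphatase genes that were looked up, Alpi, Alppl2 and Akp3, known from intestine, embryo or germ cells, were at 0 counts in all 6 libraries. A count of 0 allows up to 3 counts, which is 0.133 to 0.209 CPM depending on the library. Alpl was thus the 1 gene of these 4 that was detected.

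Sp7, which codes for osterix, was the least abundant gene of the set. It had 12, 13 and 7 counts in Ctrl and 41, 75 and 39 counts in BMP7. These were 0.578, 0.639 and 0.342 CPM in Ctrl and 2.86, 3.33 and 2.15 CPM in BMP7, and every BMP7 library was at least 3.36 times the highest Ctrl library. The mean went from 0.520 ± 0.157 to 2.78 ± 0.596 CPM (SD, n = 3 each). On the log2 scale the rise was 2.41 ± 0.34 (SE, adjusted p = 9.20e-05 by edgeR) and ranked 42nd among all rises. At these counts the precision is limited, with a 95% CI of 1.70 to 3.12 on the log2 scale. In TPM the induced level was 2.05 ± 0.341, and 10.3% of tested genes had a smaller mean TPM than Sp7 over all 6 libraries. Sp7 lies at chr15:102265041-102275617 on the minus strand.

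Markers of other cell types bear on such low levels. In BMP7 replicates 3 and 4, 8 adipocyte markers summed to 84.9 and 74.6 CPM, while BMP7 replicate 1 held 33.5 and the Ctrl libraries 21.6 to 30.9. Of these markers, 7 of the 7 tested were higher with BMP7, against 5.99% of all tested genes. Macrophage and leukocyte markers (10 genes) summed to 23.7 and 22.4 CPM in those 2 libraries, 46.8 in BMP7 replicate 1 and 45.4 to 49.5 in Ctrl, with 3 of the 7 tested lower and the T cell marker Cd3e at 0 counts in 5 libraries and 1 in the other. The 6 fibroblast markers summed to 96.4 to 113 CPM in BMP7 and 112 to 123 in Ctrl, with Dcn, Dpt and Col3a1 higher and Col1a1 lower. Most of each sum was Col1a1 (means 71.1 CPM in Ctrl and 53.2 in BMP7) and Pdgfra (40.4 and 43.7). In BMP7 replicates 1, 3 and 4, Dpt was at 0.279, 2.40 and 1.98 CPM, against 0.196 to 0.530 in Ctrl. Dcn was at 1.74, 4.44 and 4.90 CPM in those libraries, against 0.737 to 1.73 in Ctrl. Lum, which could not be tested, had 2, 15 and 7 counts there and 3, 0 and 1 in Ctrl. In BMP7 replicate 1 Alpl was at 9.55 CPM and Sp7 at 2.86 CPM, and the log2 fold change of that library alone against Ctrl was 3.29 for Alpl and 2.45 for Sp7. That setting was added after seeing the data, and it sets 1 library against 3, with a spread that comes from Ctrl alone, so its values are given here without a test. Osteoblast markers were almost absent in both groups: of Bglap, Bglap2, Ibsp, Dmp1 and Ifitm5, no library had more than 5 counts. With Col1a1, which fibroblasts also make, these 6 summed to 65.6 to 79.4 CPM in Ctrl and 49.3 to 58.9 CPM in BMP7, nearly all of it Col1a1. Bulk RNA cannot tell more cells with a transcript from more transcript per cell.

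**Figure D2:**
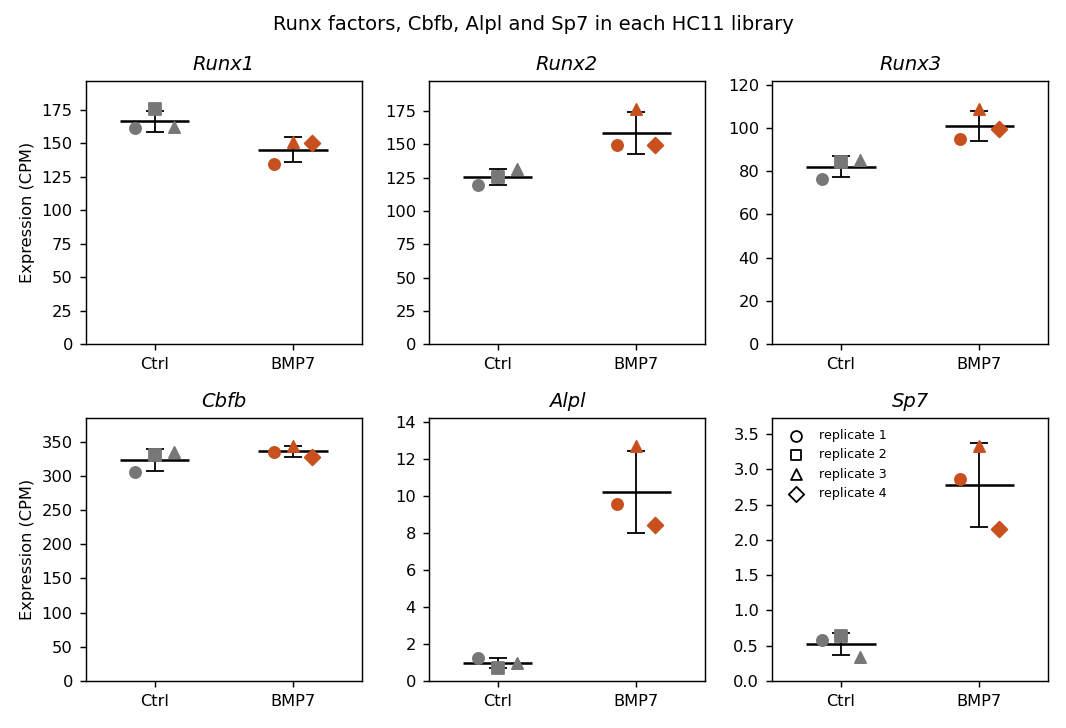
Expression in CPM (linear axes from 0) of the 6 genes in each HC11 library, with Ctrl in grey and BMP7 in orange and the symbol giving the replicate number. Horizontal lines are means and bars are SD (n = 3). For Alpl, Ctrl libraries lie between 0.688 and 1.25 CPM and BMP7 libraries between 8.43 and 12.7 CPM, the groups of Runx1, Runx2 and Runx3 are separate but close, and those of Cbfb overlap.

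Runx2, the Runx factor of the osteoblast lineage, was expressed in HC11 cells without BMP7 and rose modestly with it. It was at 119, 125 and 131 CPM in Ctrl and at 150, 176 and 150 CPM in BMP7. No BMP7 library reached down to Ctrl, but BMP7 replicate 3 stood above the other 2, which were 1.14 times the highest Ctrl library. The means were 125 ± 5.96 and 158 ± 15.4 CPM (SD, n = 3 each), with a log2 fold change of 0.34 ± 0.07 (SE, 95% CI 0.19 to 0.49, adjusted p = 0.00377 by edgeR). Without BMP7 replicate 3 the log2 fold change was 0.26 (adjusted p = 0.0216 by edgeR), under the fold required, so this call rested on 1 library. It was also 0.26 for BMP7 replicate 1 alone against Ctrl, a value of 1 library. Runx2 lies at chr17:44806874-45125684 on the minus strand. Its exons share 519 bases (5.87% of their length) with Runx2os1 on the other strand. Counting ignored strand and left out fragments shared by genes, so fragments over these bases were given to neither gene. The 11 to 30 counts per library given to Runx2os1 thus lay outside the exons of Runx2, and their strand is not known.

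Runx3 moved in the same way. Ctrl libraries were at 76.4, 84.4 and 85.1 CPM and BMP7 libraries at 94.7, 109 and 99.4 CPM. The groups were separate, with the lowest BMP7 library at 1.11 times the highest Ctrl library. Means were 82.0 ± 4.85 and 101 ± 7.08 CPM (SD, n = 3 each). The difference on the log2 scale was 0.30 ± 0.07 (SE, 95% CI 0.16 to 0.45, adjusted p = 0.00723 by edgeR). Leaving out Ctrl replicate 1 gave 0.25 (adjusted p = 0.0512), and leaving out BMP7 replicate 3 gave 0.25 (adjusted p = 0.0452) with the fold under 1.2, each ending the call by edgeR. For BMP7 replicate 1 alone against Ctrl the value was 0.21. Runx3 lies at chr4:134847963-134905301 on the plus strand.

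Runx1 differed in the opposite direction, by a smaller amount, and did not pass the test. It was at 161, 175 and 162 CPM in Ctrl and at 135, 151 and 150 CPM in BMP7. All 3 BMP7 libraries were below all 3 Ctrl libraries, the nearest pair differing by a factor of 0.938 from highest BMP7 to lowest Ctrl. The means were 166 ± 7.91 and 145 ± 9.19 CPM (SD, n = 3 each), and the log2 fold change of -0.19 ± 0.06 (SE, 95% CI -0.33 to -0.06) had an adjusted p of 0.0582 by edgeR, just above the threshold, and a fold under 1.2. For BMP7 replicate 1 alone against Ctrl the value was -0.30. Runx1 lies at chr16:92398354-92623037 on the minus strand and shares 106 exon bases (0.881%) with Gm26626, which had at most 6 counts in a library.

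Cbfb, the partner subunit, was the most abundant of the 6 and showed no detectable difference. It was at 305, 331 and 335 CPM in Ctrl and 336, 344 and 328 CPM in BMP7. The groups overlapped, with BMP7 replicate 4 below 2 of the Ctrl libraries. Its means were 324 ± 16.2 and 336 ± 8.10 CPM (SD, n = 3 each) and its log2 fold change 0.05 ± 0.06 (SE, adjusted p = 0.635 by edgeR), with a 95% CI of -0.07 to 0.18. A two-sided exact permutation test of the 6 libraries gave p = 0.4 for Cbfb and p = 0.1 for each of the other 5 genes, which is the smallest p that 3 libraries against 3 allow. Cbfb lies at chr8:105897306-105944621 on the plus strand.

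On the per-length scale, Ctrl cells held 254 ± 5.51 TPM of Cbfb, 44.7 ± 1.39 of Runx3, 38.7 ± 0.361 of Runx2 and 37.8 ± 2.25 of Runx1, then 0.661 ± 0.208 of Alpl and 0.420 ± 0.136 of Sp7 (SD, n = 3 each). Runx2 and Runx1 were not separated by their libraries in this order, nor were Alpl and Sp7. With BMP7 the order was Cbfb (244 ± 6.83 TPM), Runx3 (50.9 ± 2.94), Runx2 (45.2 ± 2.73), Runx1 (30.5 ± 2.56), Alpl (6.37 ± 1.07) and Sp7 (2.05 ± 0.341). Here Runx3 and Runx2 overlapped, and Runx2 was separate from Runx1. The 3 Runx transcripts thus lay between 37.8 and 44.7 TPM in Ctrl and between 30.5 and 50.9 TPM in BMP7. Cbfb exceeded the next gene 5.68-fold in Ctrl and 4.79-fold in BMP7. This order rests on summed exon lengths, which were 12025, 8837 and 5003 bases for Runx1, Runx2 and Runx3. Without division by length, Ctrl means of these 3 were 166, 125 and 82.0 CPM. TPM is not adjusted for composition between groups, so these levels order genes within a condition.

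The make-up of the Runx transcripts can be compared between conditions without any library scaling, as the share of each gene in the sum of the 3 within a library. Runx1 made up 31.8, 32.0 and 29.7% of the summed TPM in Ctrl and 23.8, 23.2 and 25.3% in BMP7. Runx2 made up 32.0, 31.1 and 32.7% in Ctrl and 36.0, 36.8 and 34.4% in BMP7. Runx3 made up 36.2, 36.9 and 37.5% in Ctrl and 40.2, 40.0 and 40.3% in BMP7. None of the 3 shares overlapped between the groups. They are parts of 1 sum, so a lower share of 1 gene raises the others, and they are not 3 separate results. The mean share of Runx1 was 31.2 ± 1.25% in Ctrl and 24.1 ± 1.09% in BMP7 (SD, n = 3 each), a difference of -7.06 percentage points, and the differences for Runx2 and Runx3 were 3.75 and 3.31 points. For each share the two-sided exact permutation p was 0.1, the smallest possible, and 0.1 after adjustment over the 3. The ratio of Runx2 to Runx1 in TPM went from 1.03 ± 0.0667 to 1.48 ± 0.116 and that of Runx3 to Runx1 from 1.19 ± 0.0674 to 1.67 ± 0.0683 (SD, n = 3 each). The sum of the 3 per Cbfb was 0.477 ± 0.00580 in Ctrl and 0.520 ± 0.0306 in BMP7.

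**Figure D3:**
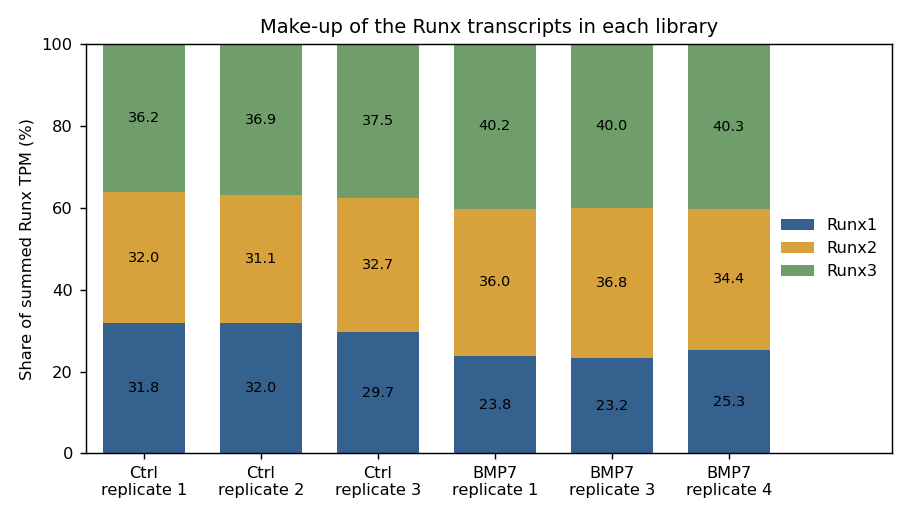
Share (percent, stacked from 0 to 100) of Runx1, Runx2 and Runx3 in their summed TPM in each of the 6 libraries, with the value printed in each segment. The Runx1 segment is 29.7 to 32.0% in Ctrl and 23.2 to 25.3% in BMP7.

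Genes whose profile over the 6 libraries was nearest to that of a member were found by the root mean square distance between centred log2 CPM values, among 14100 tested genes that averaged 1 CPM or more. Alpl was nearest to Dysf, Cxcl12 and Foxq1 (distances 0.22, 0.27 and 0.29), and Sp7 was its 27th nearest. Sp7 was nearest to Neurl1a, Ncam1 and the BMP-induced inhibitor Smad6 (0.14, 0.25 and 0.25). Runx2 was nearest to Atp2b1, Gm4739 and Iqsec1, with Runx3 as its 18th nearest, and Runx3 was nearest to Ticam1, Hif1a and Rbm14, with Runx2 as its 17th nearest. Runx1 was near to Lrrfip1 and Rbm43, and Cbfb was nearest to Phlpp1, Gm1818 and Dnm1l. These distances describe likeness over 6 libraries, which includes any difference between the 2 groups.

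The factors that work beside Runx2 and Sp7 in osteoblast precursors were given by a list of 15. Of these 12 could be tested, 6 were higher and 1 was lower (58.3% called, against 11.4% of all tested genes), with a median log2 fold change of 0.26 against -0.01 over all tested genes. This list and those below were chosen with earlier results of these data known, so their shares are descriptions and not tests. The higher ones were the homeobox genes Dlx3, Dlx5, Dlx6, Msx1 and Msx2, and Sox9, the factor of cartilage. Dlx5, which acts upstream of Runx2 and Sp7 in bone, was at 24.6, 25.5 and 30.1 CPM in Ctrl and 101, 114 and 74.6 CPM in BMP7, a log2 fold change of 1.85 ± 0.12 (SE, adjusted p = 2.13e-08 by edgeR). Dlx3 went from 2, 7 and 1 counts to 42, 43 and 48 counts (log2 fold change 3.87 ± 0.47, SE). The size of this change is poorly fixed from so few Ctrl counts. Dlx3 passed the filter on low counts only through its BMP7 libraries, so its place among the 12 tested depends on its rise. Dlx6, Msx1 and Msx2 had log2 fold changes of 1.35, 1.29 and 1.05. Sox9, at 459 TPM the most abundant of the list in Ctrl, was 0.34 higher. Osr1, a zinc finger factor of early mesoderm, was 0.35 lower. Atf4, a factor of osteoblast amino acid supply, had a value of 0.12 (adjusted p = 0.306 by edgeR).

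Genes for bone matrix and mineralization were divided. Of 29 listed, 28 were in the counts and 14 could be tested, 6 higher and 2 lower (57.1% called, against 11.4% of all tested genes), with a median log2 fold change of 0.21. The matrix genes Bgn (biglycan), Col1a2, Postn (periostin) and Sparc (osteonectin) were higher by 1.70, 1.65, 0.66 and 0.33, the last losing its call without Ctrl replicate 2 and under the replicate block. The BMP7 libraries, in the order 1, 3 and 4, held 13.5, 21.4 and 15.1 CPM of Bgn, and Ctrl held 3.83 to 5.97. For Col1a2 they held 3.76, 5.78 and 3.80 CPM, and Ctrl held 1.06 to 1.62. Fibroblasts make these matrix genes too, and the part of the fibroblast markers in these values was not tested. Phex, an endopeptidase of phosphate balance, was higher by 0.89, and Tnfrsf11b, which codes for osteoprotegerin, a decoy receptor that restrains bone resorption, by 0.55. Col1a1 was lower by 0.41 while Col1a2, the other chain of the same collagen, was higher. Enpp1, the enzyme that makes the pyrophosphate that Alpl's product removes, was at 90.8, 85.8 and 90.5 CPM in Ctrl and 62.0, 68.3 and 77.0 CPM in BMP7 (log2 fold change -0.36 ± 0.07, SE, adjusted p = 0.00335 by edgeR). Alpl and Enpp1 thus moved in opposite directions in these libraries. Spp1 (osteopontin), the most abundant of the list at 3723 TPM in Ctrl, had a log2 fold change of -0.26 with adjusted p = 0.0206, under the fold required. It would be called lower without Ctrl replicate 1, Ctrl replicate 3 or BMP7 replicate 1. Among the 14 that could not be tested, Sost, an osteocyte inhibitor of Wnt signaling, was at 0 counts in all libraries, as was Tnfsf11, the ligand that osteoprotegerin binds.

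Partners and regulators of Runx proteins mostly did not pass the test. Of 38 listed, 35 were tested, 2 were higher and 1 lower, which is 8.57% against the 11.4% of all tested genes, and the median log2 fold change was 0.03. Hey1, a repressor that binds Runx2, was at 17.2, 17.5 and 20.3 CPM in Ctrl and 56.2, 66.3 and 53.9 CPM in BMP7 (log2 fold change 1.68 ± 0.09, SE, adjusted p = 2.51e-09 by edgeR). Smad1, a BMP effector and Runx2 partner, was higher by 0.45, and Hipk2, a kinase, was lower by 0.55. The most abundant of the list, the RNA helicase gene Ddx5 and the ubiquitin ligase gene Nedd4, had values of 0.11 each and did not pass.

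Genes described elsewhere as Runx targets, a list of 15 that includes some of the bone genes above, gave 2 higher and 0 lower of 8 tested (25% called, against 11.4% of all tested genes), with a median log2 fold change of -0.25. The lowest values were those of Csf1r, Mmp13 and Mmp9 (-1.16, -1.13 and -1.01), none of which passed, and Csf1r is also one of the leukocyte markers whose sum was lower in BMP7 replicates 3 and 4. The part of those markers in this median was not tested. The higher ones were Cdkn1a, the cell cycle inhibitor p21, at 0.78 and Lgals3 (galectin-3) at 0.44. Spp1 and Vegfa lay just under the fold required and were called lower in some alternatives, up to 3 genes lower without BMP7 replicate 1. Csn2, the gene of β-casein, was at 0 counts in 5 libraries and at 1 in the other, so it could not be read. Among the Sp family relatives of Sp7, 3 of 7 tested were higher and 0 lower (42.9% called, against 11.4% of all tested genes). Sp8 and Sp9, developmental members of the family, were higher by 0.89 and 0.52, and Sp2 by 0.30 with overlapping groups. Without Ctrl replicate 1 only 1 of the 3 was called, and Sp8 also lost its call without Ctrl replicate 3 or BMP7 replicate 1, and Sp2 without Ctrl replicate 2 or BMP7 replicate 3 and under upper-quartile scaling. The abundant and ubiquitous Sp1 and Sp3 had values of -0.09 and -0.02 and did not pass.

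**Figure D4:**
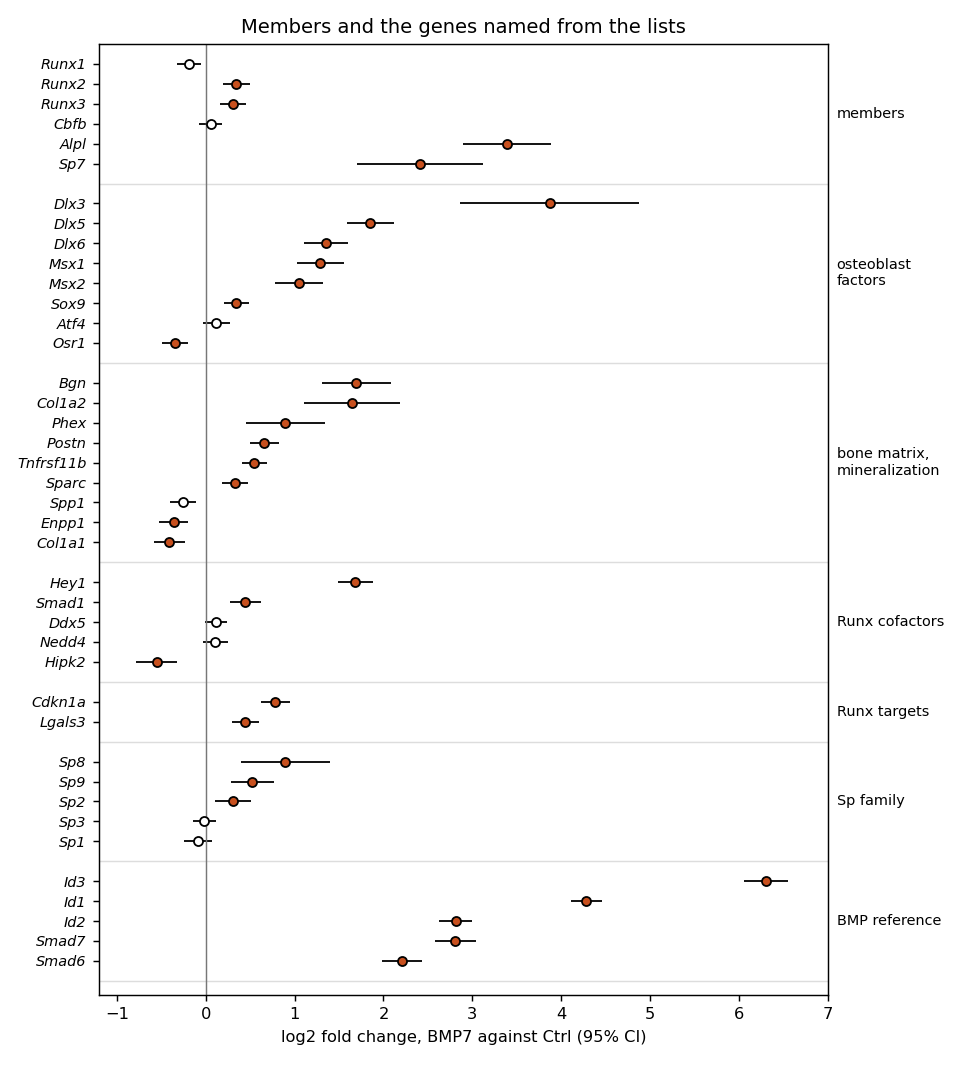
log2 fold change of BMP7 against Ctrl (points) with 95% confidence interval (bars) for the 6 genes and for the genes named from each list, each gene once. Filled points passed both thresholds, and Alpl at 3.39 and Sp7 at 2.41 lie in the range of the BMP reference genes, while Runx2 and Runx3 lie near 0.3.

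The calls for the 6 genes differed in how firmly they stood. Alpl ranged from 3.20 to 3.62 and Sp7 from 2.19 to 2.74 on the log2 scale over every alternative in which they could be tested, and both were called in each. Runx2 ranged from 0.26 to 0.38 and Runx3 from 0.21 to 0.34, always higher and with their calls lost in the settings named with each gene. Runx1 ranged from -0.30 to -0.14 and Cbfb from 0.01 to 0.09.

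**Figure D5:**
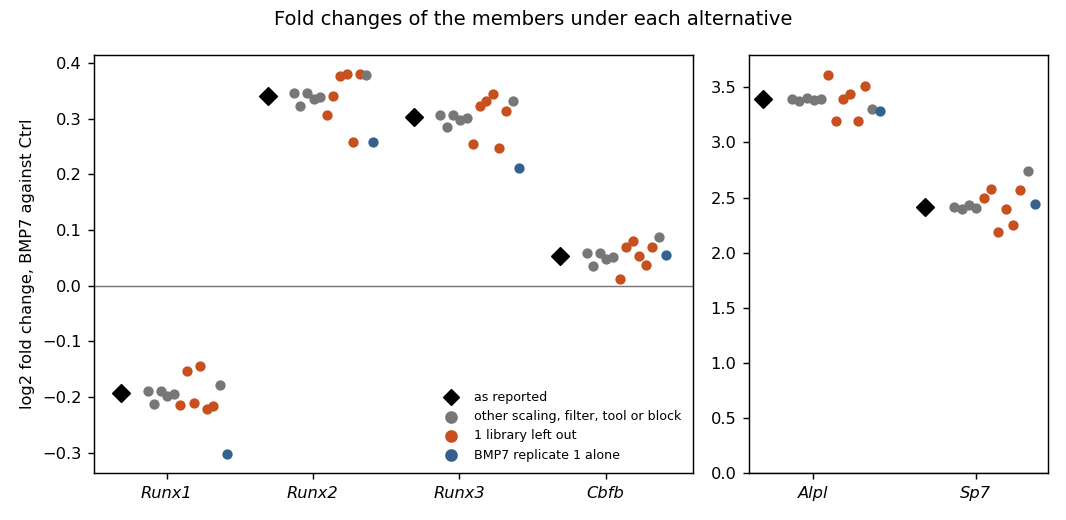
log2 fold change of BMP7 against Ctrl for each of the 6 genes as reported (black diamond), under other scalings, filters, tools or a replicate block (grey), with 1 library left out (orange) and with BMP7 replicate 1 alone against Ctrl (blue). The left and right panels have different scales. No point crosses 0, with Runx1 below it throughout and Cbfb nearest to it, at 0.01 to 0.09.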

How the data were processed

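The authors sequenced poly(A) RNA as read pairs, aligned them with subjunc (Subread 2.0.3 by the submitters' processing notes, which name mm10 and mm39) and deposited raw fragment counts per gene and summed exon lengths from featureCounts (2.0.1 per the file headers, annotation named mm39). Counting was unstranded, and multi-mapping or multi-gene fragments were dropped.

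The deposited counts were analysed in R 4.3.3 with edgeR 4.0.16. Its expression filter kept 15733 genes, libraries were scaled by TMM, and the quasi-likelihood test compared 3 BMP7 with 3 Ctrl libraries, grouped by their labelled treatment, with no covariate. SE was taken as log2 fold change over the root of F. CPM has no prior count, and profile distances used a prior count of 2. Totals were 14607938 to 23748970 counts, and counting errors cover sampling of fragments only. Replicates differed by more than sampling noise (chi-square per degree of freedom 5.00 to 11.8).

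The 6 genes and the lists were chosen with earlier results of these data known. Named from each list were called genes that averaged 1 CPM or more, at most 8, and the 2 most abundant, and for each member the 3 nearest profiles and genes with overlapping exons. Items withheld are not reported here. Markers, Vegfa, Csn2, Mmp9, Mmp13 and genes at 0 were named after their values were seen. Alternatives were RLE and upper-quartile scaling, DESeq2 1.42.0, no filter, at least 10 counts in every library, adjusted p alone, a fold of 2, leaving out each library, a replicate block, shares of counts, and, added after seeing the data, BMP7 replicate 1 alone against Ctrl. The fits were tested on simulated data. BLAST 2.17.0 found no transcript in GENCODE vM21 that matched a member over 100 bases at 95% identity other than Gm26626 and Runx2os1. Figures were drawn with matplotlib 3.10.9.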

Additional observations from a re-analysis of the deposited data

How the results depend on the processing

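No fold change of the 6 genes changed sign under any of the alternatives. Runx2 ranged from 0.26 to 0.38 with 1 library left out and Runx3 from 0.25 to 0.34, and with BMP7 replicate 1 alone against Ctrl the log2 fold changes were -0.30 for Runx1, 0.26 for Runx2 and 0.21 for Runx3. That setting has 1 library in an arm, which is assumed to vary as the Ctrl libraries do, so its counts of calls are weak. The number of members higher with BMP7 was 2 to 4 with 1 library left out, 2 without BMP7 replicate 3, 2 with BMP7 replicate 1 alone, when 1 member was lower, and 2 at a fold change of 2. Over all genes, 252 were higher and 112 lower at a fold change of 2, and 563 to 902 were lower with 1 library left out, 563 of them without Ctrl replicate 2. As shares of counts, the differences for Runx1 and Runx2 were -8.58 and 5.58 percentage points, since Runx1 and Runx2 have longer exons than Runx3. Sp7 could not be tested where at least 10 counts were required in every library. A replicate block on the library numbers, of which both groups carry 1 and 3, changed no call of the 6 genes. The log2 fold changes were -0.18, 0.38, 0.33, 0.09, 3.31 and 2.74 for Runx1, Runx2, Runx3, Cbfb, Alpl and Sp7, with 1152 genes higher and 959 lower. Ctrl replicate 2 and BMP7 replicate 4 had no partner in that fit, so its group difference rested on the libraries numbered 1 and 3. Deviations of same-numbered libraries from their group means had correlations of -0.01 and 0.12. Libraries with different numbers were not compared in this way, so these values cannot show whether the libraries were paired. Other scalings moved the median of all genes by at most 0.02. Depth limits the Ctrl levels of Alpl and Sp7, at 7 to 26 counts a library.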
